A study of Mus musculus with 8 samples.

Results

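A stretch of mouse chromosome 4 was examined in which the deposited replication timing score goes through 0 at 3 places in each profile. It is made of the 240 bins of 5 kb from 62500000 to 63695000 of the mm10 build, out of 30659 bins with a score in all 4 profiles. The bins were chosen by the deposited timing scores themselves: a pair of places where the score goes through 0 lay elsewhere in the deletion profiles than in the controls. In the mean of the 4 profiles they lie at 62986729 and 63281143. All differences between genotypes given here are therefore descriptions of the values that chose the region, with no test.

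JM8N4, a line of mouse embryonic stem cells, was profiled as control and after deletion of a Klf4 enhancer. Klf4 encodes a transcription factor that helps keep stem cells in the naive pluripotent state. Cells were given BrdU, a nucleoside analog that marks new DNA, for 2 h. Then 40000 cells each from the early and the late part of S phase supplied the DNA for 8 libraries. An early and a late library make 1 profile, which leaves 2 profiles per genotype, numbered 1 and 2. The labels do not say whether those are separate cultures or clones, whether both alleles were deleted or where the deletion ends, so the spread between profiles may be technical. The Klf4 gene lies 6.97 Mb below the region on the same chromosome.

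In embryonic stem cells, as in other mammalian cells, the genome is copied in large domains, early where genes are dense and active and late in gene-poor or silent stretches. Between an early and a late domain lies a transition, along which the time of copying changes steadily with position. Some stretches that lie between domain types are copied at an intermediate time and change domain type during differentiation. A higher score was taken as earlier replication, since protein-coding genes numbered 15.1 per Mb where the mean score of the chromosome was above 0 and 2.92 per Mb where it was below. The score has no stated log base and is given without a unit. No read counts come with the scores, so the depth behind them is unknown.

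The region holds 36 RefSeq genes (GRCm38.p6), of which 18 encode proteins. The promoters of 4 of these are shown because their genes lie from the lowest point of the dip to the bin with the largest difference between genotypes, which is in Col27a1. Zfp618 and Ambp themselves do not have the largest gene differences of the region. Zfp618 encodes a zinc finger protein and holds the lowest point of the dip in all 4 profiles. Ambp encodes the precursor of alpha-1-microglobulin and bikunin, plasma proteins made in the liver, and Kif12 encodes a kinesin motor protein. Col27a1 encodes a fibrillar collagen of cartilage. Each sequence runs from 250 bases before to 50 bases after an annotated start, 5′ to 3′ on the strand of the gene, with every CG dinucleotide in capitals. They lie at chr4:62965317-62965616 (plus strand), chr4:63154123-63154422 (minus strand), chr4:63172082-63172381 (minus strand) and chr4:63215162-63215461 (plus strand) in the same order.
Zfp618: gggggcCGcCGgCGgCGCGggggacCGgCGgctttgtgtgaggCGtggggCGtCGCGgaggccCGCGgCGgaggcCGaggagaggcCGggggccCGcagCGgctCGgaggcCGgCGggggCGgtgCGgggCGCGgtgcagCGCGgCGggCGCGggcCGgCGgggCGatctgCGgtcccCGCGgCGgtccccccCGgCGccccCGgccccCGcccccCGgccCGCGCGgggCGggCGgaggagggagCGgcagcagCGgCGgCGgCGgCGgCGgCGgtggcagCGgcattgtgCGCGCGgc
Ambp: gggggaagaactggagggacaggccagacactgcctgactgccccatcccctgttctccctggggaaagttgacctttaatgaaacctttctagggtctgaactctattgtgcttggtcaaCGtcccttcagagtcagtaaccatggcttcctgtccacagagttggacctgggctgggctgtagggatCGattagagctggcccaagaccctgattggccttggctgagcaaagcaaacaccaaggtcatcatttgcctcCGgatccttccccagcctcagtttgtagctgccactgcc
Kif12: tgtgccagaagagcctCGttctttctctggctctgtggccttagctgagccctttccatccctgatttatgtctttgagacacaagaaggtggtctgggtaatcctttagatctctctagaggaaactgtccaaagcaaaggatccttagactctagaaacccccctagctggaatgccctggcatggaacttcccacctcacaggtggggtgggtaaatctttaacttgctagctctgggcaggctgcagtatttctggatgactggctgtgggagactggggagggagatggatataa
Col27a1: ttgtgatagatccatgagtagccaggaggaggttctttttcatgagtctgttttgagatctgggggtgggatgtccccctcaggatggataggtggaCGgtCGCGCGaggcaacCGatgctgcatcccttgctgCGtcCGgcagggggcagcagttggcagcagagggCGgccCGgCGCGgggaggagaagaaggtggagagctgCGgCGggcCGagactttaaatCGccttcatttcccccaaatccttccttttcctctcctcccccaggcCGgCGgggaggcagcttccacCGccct

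CG dinucleotides, which read the same on both strands, numbered 59 in the Zfp618 promoter, 3 in that of Ambp, 1 in that of Kif12 and 18 in that of Col27a1. Among all 32851 mouse promoters of this length in the RefSeq table, 94.6% hold at least 1 CG and the median is 7. Of them 0.10% hold as many as the Zfp618 promoter, and 29.7% as many as that of Col27a1. Over the 34 promoter entries of the region, for 25 genes of any type, the number ranged from 0 to 59, and 14 entries lay above the median of all promoters. The bins of Col27a1 also hold Mir455, whose 2 mature microRNAs are shown with the seed, bases 2 to 8, in capitals because they lie close to the bin where the genotypes differ most.
miR-455-5p: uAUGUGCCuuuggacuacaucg
miR-455-3p: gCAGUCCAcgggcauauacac

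Along the region, all 4 profiles started early, dipped below 0, rose to a low shoulder and then fell below 0 again. On the way down control 1 levelled off above 0, with a local maximum of 0.45 at 62955000. Deletion 2 levelled off only below 0, with a local maximum of -0.25 at 62965000. Control 2 and deletion 1 fell to the dip without such a stretch. In the first bin the score was 2.55 in control 1, 2.80 in control 2, 3.05 in deletion 1 and 3.03 in deletion 2. In the last bin it was -0.79 and -0.75 in controls 1 and 2, and -1.50 and -1.17 in deletion 1 and 2. Deletion profiles were thus higher than both controls at the early end and lower at the other end. Just outside, at 62495000 and 63700000, the mean differences were 0.36 and -0.56, about the same as in the first and last bin (0.36 and -0.56).

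**Figure D1:**
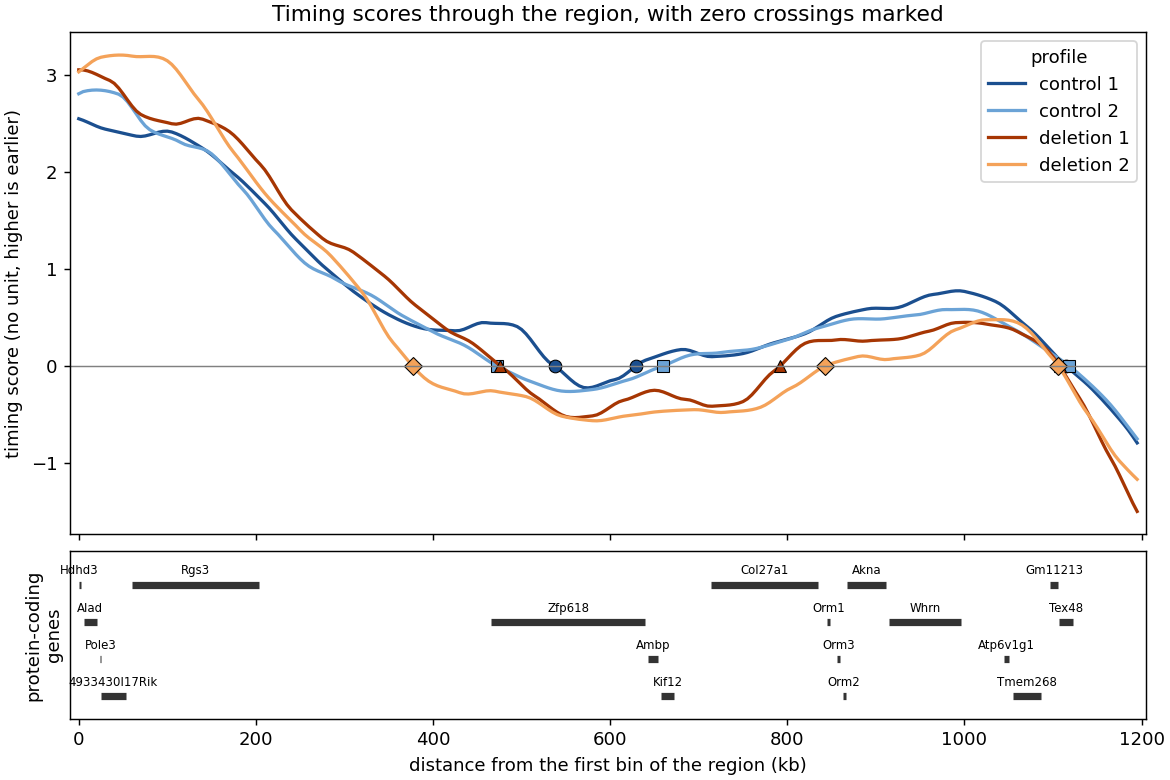
Timing score (vertical axis, no unit) of the 4 profiles against distance in kb from the first bin of the region, with each zero crossing marked and the 18 protein-coding genes drawn below. The part below 0 is 91.6 and 188 kb wide in controls 1 and 2 and 316 and 466 kb wide in deletion 1 and 2.

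The falling edge of the dip was the less separated of its edges. The score went through 0 at 63037225 in control 1 and 62972018 in control 2, and at 62976137 in deletion 1 and 62876980 in deletion 2. Deletion 1 crossed 4.12 kb above control 2, so the genotypes overlapped. The means were 63004.6 kb ± 46.1 in the controls and 62926.6 kb ± 70.1 for the deletion profiles (n = 2 each, ± SD), a difference of -78.1 kb. That is close to the distance between the controls themselves, 65.2 kb, and below that between the deletion profiles, 99.2 kb. It was -28.5 kb without deletion 2, -45.5 kb without control 1, -111 kb without control 2 and -128 kb without deletion 1. In control 1, control 2 and deletion 1 the crossing fell inside Zfp618, at 71.7, 6.46 and 10.6 kb above its lower end. In deletion 2 it lay 88.6 kb below the gene, where no annotated gene was within 50 kb.

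The rising edge was the more separated one. It lay at 63128857 in control 1 and 63159639 in control 2, and at 63291848 in deletion 1 and 63342869 in deletion 2. Both deletion profiles crossed above both controls, with 132 kb between the nearest pair. The means were 63144.2 kb ± 21.8 in the controls and 63317.4 kb ± 36.1 for the deletion profiles (n = 2 each, ± SD), a difference of 173 kb. Control 1 crossed 10.9 kb inside the upper end of Zfp618 and control 2 inside Kif12. Deletion 1 crossed inside Col27a1, 77.8 kb from its lower end, and deletion 2 crossed 7.88 kb above Col27a1, in the long noncoding RNA gene Gm52743 and 1.69 kb below Orm1. From 63159639 in Kif12 to 63291848 in Col27a1, both controls were thus above 0 and both deletion profiles below.

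From edge to edge the dip was 140 kb ± 67.9 wide in control and 391 kb ± 106 for the deletion profiles (n = 2 each, ± SD), a difference of 251 kb. The profiles of the genotypes did not overlap in width. A further falling crossing near the end of the region lay in or beside Tex48, a testis-expressed gene. It was at 63614810 and 63618463 in controls 1 and 2 and at 63607405 and 63606160 in deletion 1 and 2. This crossing differed by only -9.85 kb, although the genotypes did not overlap there either, since the controls lay 3.65 kb apart.

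The lowest score was -0.23 in control 1 (at 63075000), -0.26 in control 2 (63055000), -0.53 in deletion 1 (63060000) and -0.56 in deletion 2 (63085000). All these positions lie in Zfp618. The lowest score was -0.24 ± 0.03 in the controls and -0.55 ± 0.02 for the deletion profiles (n = 2 each, ± SD), a difference of -0.30 with no overlap. Measured from the mean of the highest points of the region on either side, the depth was 1.89 and 1.98 in controls 1 and 2 and 2.28 and 2.40 in deletion 1 and 2. That difference, 0.41, came with an early high point that was higher by 0.43 in the deletion profiles. In control 1 and deletion 1 this early high point was the first bin, 62500000. Control 1 was still higher just outside, at 2.56 against 2.55, so this depth depends on where the region begins. Measured from the upper shoulder alone, which lies between 63495000 and 63540000, the depth averaged 0.92 ± 0.11 for the controls and 1.01 ± 0.04 for the deletion profiles (n = 2 each, ± SD). In that measure the genotypes overlapped. The shoulder itself was at 0.77 in control 1, 0.58 in control 2, 0.45 in deletion 1 and 0.48 in deletion 2.

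The dip had a second minimum in 3 of the 4 profiles. Control 1 rose to 0.17 at 63180000 and sank to 0.10 at 63215000. Deletion 1 rose to -0.25 at 63150000 and sank to -0.41 at 63215000, and deletion 2 rose to -0.45 at 63195000 and sank to -0.48 at 63225000. These second minima lie at the lower end of Col27a1. Control 2 rose without a break. In the control profiles this second stretch was above 0, and in the deletion profiles below it.

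**Figure D2:**
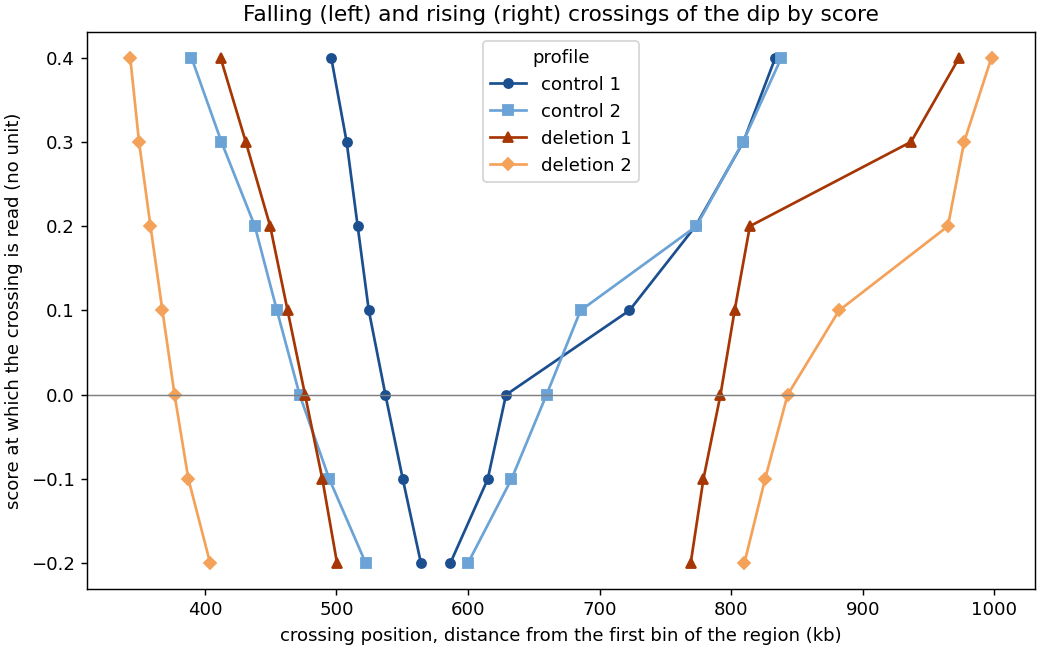
Position of the falling and rising edge of the dip (horizontal axis, kb from the first bin) when read at scores from -0.2 to 0.4 (vertical axis) in each profile. At every score shown both deletion profiles cross on the rising side above both controls, while on the falling side deletion 1 lies close to control 2.

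The score at which an edge is read changed the size of the shift. For the rising edge the deletion minus control shift was 196 kb at a score of -0.2, 173 kb at 0, 107 kb at 0.25 and 150 kb at 0.4. For the falling edge it was -91.0 kb at -0.2, -78.1 kb at 0 and -65.3 kb at 0.4. The genotypes overlapped at the falling edge from 0 to 0.4, but at -0.1 and -0.2 both deletion profiles crossed below both controls. At -0.1 deletion 1 crossed at 62989299 and control 2 at 62994607. At -0.3 the control profiles had no edge at all. Their scores do not go that low here.

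The scores go through 0 at a shallow angle. Over 50 kb around the falling edge the control mean fell by 0.67 per 100 kb, and around the rising edge it rose by 0.40 per 100 kb. The median steepness of the 73 zero crossings of the chromosome that could be matched in all 4 profiles was 1.02 per 100 kb. Of these 73, the rising edge was rank 4 from the shallowest and had the largest shift, while the falling edge was rank 16 from the shallowest and rank 5 by size of shift. The region was chosen for the shift of these edges, so nothing is read from their ranks by shift. The far crossing had rank 53 by size of shift, at a steepness of 0.78 per 100 kb. The median shift of the matched crossings was 19.9 kb in size. It was 31.8 kb for the 36 crossings with a steepness under 1 per 100 kb and 15.3 kb for the rest. The genotypes did not overlap at 15 of the 73, which is 20.5%, and at 2 of the 3 crossings of the region, a count from the contrast that chose it. Of 81 crossings of the control mean, 8 had no partner within 250 kb in some profile and are not in these ranks. The profiles without a partner were deletion 1, control 1 or both profiles numbered 2. Crossings farther away than 250 kb could not be seen.

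**Figure D3:**
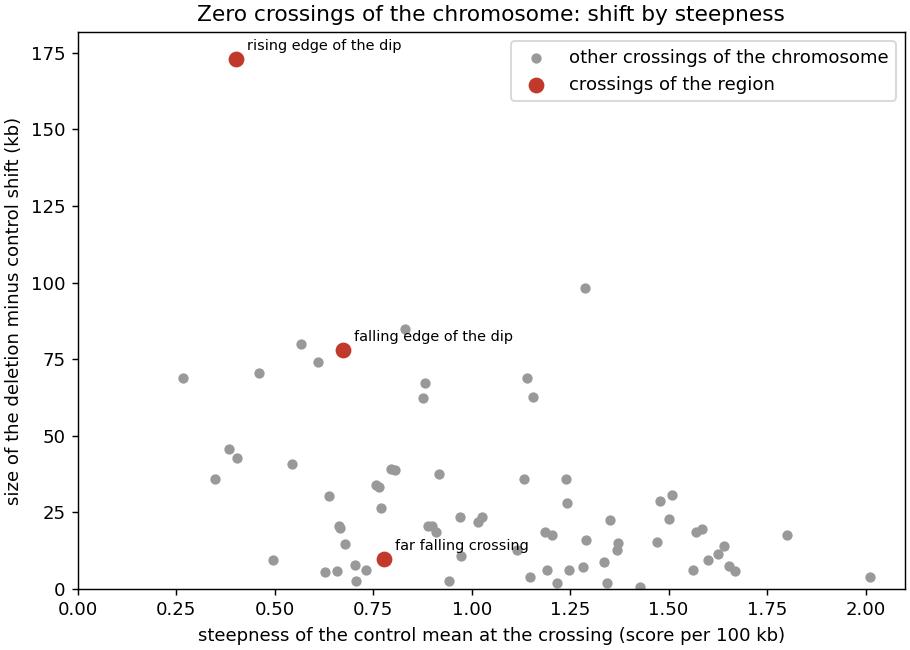
Size of the deletion minus control shift in kb (vertical axis) against steepness of the control mean in score per 100 kb (horizontal axis) for 73 zero crossings of chromosome 4. The rising edge of the dip lies at 173 kb, the falling edge at 78.1 kb and the far crossing at 9.85 kb. The region was chosen for the shift of the rising and falling edge.

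As an interval below 0 the dip was narrow and shallow for this chromosome. Control 1 had 44 intervals below 0 bounded by crossings, with a median width of 834 kb, and this one was the 4th narrowest and 5th shallowest. In control 2 it was the 4th narrowest of 40 and the 3rd shallowest. In deletion 1 it was the 8th narrowest of 42 and the 6th shallowest. In deletion 2 it was the 13th narrowest of 43 and the 4th shallowest.

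By bins, the region divided into an early part that was higher in the deletion profiles and a remainder that was lower. In 64 of the 240 bins (26.7%) both deletion profiles were higher than both controls, against 16% of all 30659 positions. Those bins made 1 run from 62500000 to 62819999. Both deletion profiles lay below both controls in 131 bins (54.6%), against 5.86% of all positions. These formed a run of 555 kb from 62985000 to 63539999 and one of 100 kb from 63600000 to 63699999. The other 45 bins overlapped. Since the same contrast chose the region, nothing is read from these shares. By limma, which compares the genotypes at every position with a moderated spread, 0% of positions were called (adjusted p under 0.05), that is 0 of 30659 and 0 of the 240 bins, with 299 and 0 at an unadjusted p under 0.05.

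**Figure D4:**
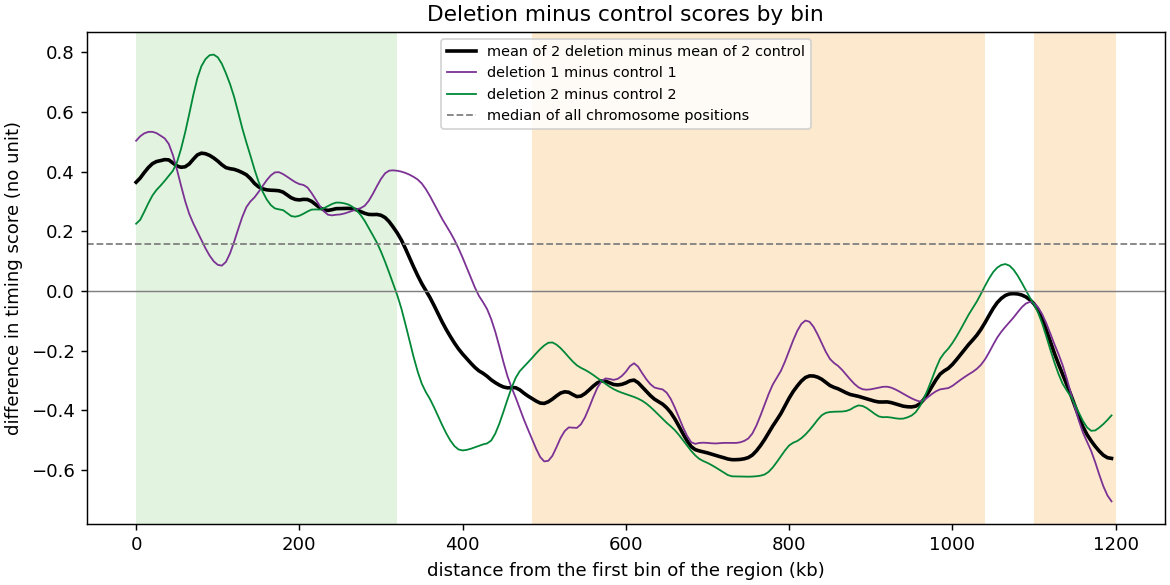
Deletion minus control timing score (vertical axis, no unit) by bin against distance in kb from the first bin, as the mean of 2 profiles each and for each replicate number, with the median of all chromosome positions dashed. Green marks the bins where both deletion profiles lay above both controls and orange those where both lay below. The mean runs from 0.46 at its highest to -0.57 at its lowest.

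The difference was largest in size at 63230000, in Col27a1. There the score was 0.10 in control 1, 0.15 in control 2, -0.41 in deletion 1 and -0.48 in deletion 2, a difference of -0.57. It was highest at 62580000, in Rgs3. There the score was 2.38, 2.43, 2.55 and 3.19 in the same order, a difference of 0.46 that came mostly from deletion 2. Over the chromosome the median difference of all positions was 0.16. Relative to that shift, the mean difference was 0.15 over the bins below the dip, -0.53 between the outermost crossings, -0.39 from there to the far crossing and -0.56 beyond it. Between the outermost crossings the mean score was 0.18 and 0.06 in controls 1 and 2 and -0.14 and -0.37 in deletion 1 and 2. These 4 means lay within 0.55 of each other.

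Whether the dip reaches 0 depended on how the profiles are scaled. The deposited columns share an interquartile range but not a median, which was -0.79 and -0.37 in controls 1 and 2 and -0.73 and -0.21 in deletion 1 and 2. With each profile centred on its own median, the lowest point of the dip was 0.57 and 0.11 in controls 1 and 2, 0.20 in deletion 1 and -0.36 in deletion 2. Only deletion 2 then crossed 0, and no shift of the crossings could be computed. Between the outermost crossings the centred means were 0.97 and 0.43 in the controls and 0.59 and -0.17 in the deletion profiles, so that the genotypes overlapped, with a difference of -0.48. After quantile normalization every profile crossed 0 again. The rising edge was then at 63083734 and 63241814 in controls 1 and 2 and at 63268334 and 63471974 in deletion 1 and 2. It was still without overlap. The lowest scores did overlap, at -0.02 and -0.43 in controls 1 and 2 and -0.33 and -0.91 in deletion 1 and 2. So did the means between the outermost crossings, at 0.41 and -0.09 in the controls and 0.05 and -0.70 in the deletion profiles. The number of bins above and below in both deletion profiles was 22 and 31 after centring and 27 and 31 after quantile normalization. Bins above therefore made up 32.8% of the separated bins as deposited, 41.5% after centring and 46.6% after quantile normalization.

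Among the 18 protein-coding genes, 5 had both deletion scores above both controls, 11 had both below and 2 overlapped. Over the 1301 measured protein-coding genes of the chromosome those shares were 15.1% above and 6.53% below. Gene scores average the bins that overlap the gene, so neighbours that share smoothed bins are not separate observations. The median difference of the 18 was -0.21, against 0.14 for all genes. In median-centred scores 3 of the 18 lay above, 0 below and 15 overlapped. After quantile normalization 4 lay above, 1 (Col27a1) below and 13 overlapped. The genes named here are all those that encode proteins and overlap the region, and RNA genes only within 50 kb of a crossing or of the lowest bin.

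The 5 genes at the early end were higher in the deletion profiles as deposited. Hdhd3, which encodes a hydrolase of the haloacid dehalogenase group, scored 2.67 ± 0.16 in the controls and 3.03 ± 0.02 in the deletion profiles. Alad, which encodes an enzyme of heme synthesis, scored 2.50 and 2.84 in controls 1 and 2 and 3.03 and 3.12 in deletion 1 and 2. Pole3, which encodes a small histone-fold subunit of DNA polymerase epsilon, scored 2.65 ± 0.27 and 3.08 ± 0.13 (n = 2 each, ± SD). The neighbouring 4933430I17Rik differed by 0.43. Rgs3, a regulator of G protein signalling and the longest gene of this end at 143 kb, scored 2.22 in both controls, 2.48 in deletion 1 and 2.73 in deletion 2. All 5 were far above 0 in every profile. Hdhd3 overlapped between genotypes after centring and after quantile normalization, and Rgs3 after centring.

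The genes of the dip lay near 0. Zfp618 scored 0.06 and -0.17 in controls 1 and 2 and -0.33 and -0.45 in deletion 1 and 2. Ambp scored 0.08 and -0.05 in the controls and -0.26 and -0.48 in the deletion profiles in the same order. Kif12 scored 0.13 and 0.01 in the controls and -0.28 and -0.46 in the deletion profiles. Its controls were above 0 and its deletion profiles below. Col27a1, which spans 121 kb, scored 0.20 and 0.22 in the controls and -0.14 and -0.35 in the deletion profiles, and its difference of -0.46 was the largest in size of the 18 genes. The bin that holds Mir455 scored 0.14, 0.16, -0.34 and -0.46 in control 1, control 2, deletion 1 and deletion 2. Of these genes, Col27a1 alone stayed without overlap after quantile normalization, and none did after centring.

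The orosomucoid genes follow at the upper edge. They encode acute-phase plasma glycoproteins of the liver and lie within a span of 21.3 kb. Orm1 scored 0.45 and 0.41 in controls 1 and 2, 0.26 in deletion 1 and -0.002 in deletion 2. Orm3 scored 0.48 ± 0.05 in the controls and 0.15 ± 0.16 in the deletion profiles, and Orm2 0.50 ± 0.05 and 0.17 ± 0.15 (n = 2 each, ± SD). These 3 genes differed by -0.30 to -0.33, and deletion 2 was the lowest profile in each. Akna, which encodes an AT-hook protein, and Whrn, which encodes the scaffold protein whirlin of inner ear hair cells, differed by -0.36 and -0.35. Whrn scored 0.69 and 0.54 in the controls and 0.35 and 0.18 in the deletion profiles.

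Beyond the upper shoulder, in the bins from 63540000 to 63599999, the genotypes overlapped. Atp6v1g1, which encodes a subunit of the vacuolar proton pump, scored 0.61 and 0.43 in controls 1 and 2 and 0.40 and 0.48 in deletion 1 and 2. Tmem268, a gene for a transmembrane protein, differed by -0.02. These were the 2 genes that overlapped. Gm11213 differed by -0.05, with 0.14 and 0.12 in the controls and 0.09 and 0.07 in the deletion profiles. Tex48, in or beside which the far crossing falls, scored 0.02 and 0.04 in the controls and -0.07 and -0.09 in the deletion profiles. No protein-coding gene of the region lay below 0 in all 4 profiles, 12 lay above 0 in all 4, and 6 (Zfp618, Ambp, Kif12, Col27a1, Orm1 and Tex48) had no common sign.

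**Figure D5:**
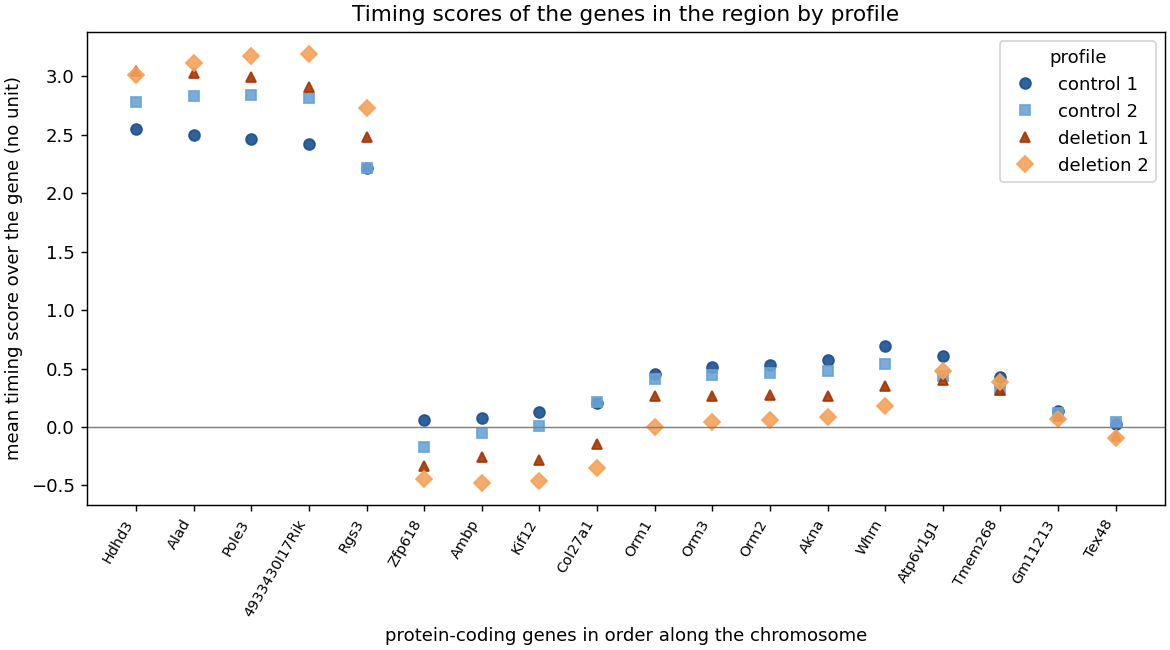
Gene means of the timing score (no unit, vertical axis) for the 18 protein-coding genes in order along the chromosome, 1 point per profile. The 5 genes at the early end lie at 2.22 or more in every profile, and the others between -0.48 and 0.69.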

How the data were processed

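The deposited table holds replication timing scores for chromosome 4 in 4 columns, which the authors scaled to a common interquartile range, per the file headers and name. Bowtie2, SAMtools, bedtools and mm10 are named in the submitters' processing notes, without versions. Smoothing and log base are not given in the sources used here. Each column was matched to its genotype by name. Crossings were read by linear interpolation between adjacent bins, positions were taken as bin starts, and genes came from a RefSeq table of GRCm38.p6. Of 31301 positions, 639 had no score in any profile and 3 none in the deletion profiles alone. The genotypes were compared at all remaining positions with limma 3.58.1 in R 4.3.3, two-sided, with Benjamini-Hochberg adjustment at 0.05, checked on simulated data. Members, lists and tests were chosen with earlier results of these data known. Other scalings, crossing rules and left-out profiles were tried as alternatives. Crossings at 0.25 and -0.1 and positions read as bin ends were added after seeing the data.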

Additional observations from a re-analysis of the deposited data

How the results depend on the processing

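Leaving out 1 profile kept the direction of the 5 differences that follow; it was not run for the genes or the far crossing. The falling-edge shift ranged from -128 kb (without deletion replicate 1) to -28.5 kb (without deletion replicate 2), the rising-edge shift from 148 to 199 kb, the width difference from 176 to 326 kb, the depth difference from 0.35 to 0.47 and the mean-score difference from -0.18 to -0.08 (without deletion replicate 2), against -0.13 with all. Bins above ranged from 64 to 84 and bins below from 131 to 163. These counts cannot fall below those with all profiles (64 and 131), since leaving 1 out only loosens the rule, so they do not measure stability. The cause of the changes below was not tested. Median centring left crossings in deletion 2 alone and so no shift, with 22 bins above and 31 below and a mean-score difference of -0.24. Quantile normalization gave a rising-edge shift of 207 kb, 27 and 31 bins and -0.26. Read at 0.5, the falling-edge shift was reversed, at 4.94 kb, since control 1 stays below 0.5 from 62855943 to 63352308. The rising edge is absent at 0.5 in both deletion profiles, and no edge could be read at -0.5 because the controls do not go so low. At 0.25 the rising-edge shift was 107 kb. The lowest score alone gave a difference of 0.30 with the sign turned, and the bins between the outermost crossings a mean difference of -0.37. Limma called 0 positions, 0 to 57 with 1 profile left out (57 without deletion replicate 2, all lower), 785 with the replicate block and 715 with the block and centring, and 0 of the 240 bins of the region in each of these fits. At an unadjusted p under 0.05 it had 36 of the 240 bins with the block and 92 with the block and centring. Nothing in the labels makes the numbers pairs. The deviations of same-numbered profiles correlated at 0.64 over the chromosome and at 0.25 over the 240 bins. Within number 1 and 2 the falling-edge shift was -61.1 and -95.0 kb and the rising-edge shift 163 and 183 kb. With positions read as bin ends, gene scores moved by at most 0.076 and no gene changed between overlap and separation. Depth of sequencing is unknown, which limits every value here.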
